A study of Mus musculus with 9 samples.

Results

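The Hox genes of the 4 mouse clusters were examined for chromatin accessibility in differentiating embryonic stem cells. Members were the windows of the deposited GpC methylation table that overlap the body or the 2 kb upstream of a Hoxa, Hoxb, Hoxc or Hoxd protein-coding gene of the GENCODE M21 annotation. This rule gave 39 genes and 166 windows of 833294 deposited windows, and 165 of the 166 had a value in all 9 libraries. The Hoxa cluster on chromosome 6 held 11 genes and 47 of these windows, Hoxb on chromosome 11 held 10 genes and 39 windows, Hoxc on chromosome 15 held 9 genes and 40 windows, and Hoxd on chromosome 2 held 9 genes and 39 windows. Genes with paralogue numbers 1 to 4 were called anterior, 5 to 8 middle and 9 to 13 posterior, and 18 windows that overlap genes of more than 1 group were counted in each.

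Hox genes encode homeodomain transcription factors that set the identity of body segments. Within each cluster the genes lie in the order in which they are used along the head to tail axis, the low paralogue numbers anterior and early, the high numbers posterior and late. In pluripotent cells the clusters are known as large domains covered by Polycomb repression together with marks of activity, rich in CpG islands, and retinoic acid opens them from the anterior end.

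All libraries came from a female FVB/CAST F1 mESC line. The day 0 library came from cells expanded in 2i medium, which holds them in the naive state, before differentiation and without a hairpin. The 4 Nons libraries carried a nonsilencing control hairpin, and the 4 Smarcc1 knockdown libraries a hairpin against Smarcc1, a core subunit of the BAF nucleosome remodelling complex. Both arms were transduced with virus on day 2 of differentiation in DME HiHi medium, selected with puromycin on day 3 and collected on days 4, 5, 6 and 7. There was 1 library per condition and day, so no difference between 2 libraries has a replicate check, and day 0 differs from the other libraries in medium, virus and selection as well as in time. Hox transcripts and Smarcc1 protein were not measured in these libraries, so neither the identity of the cells nor the knockdown could be checked from them. A DNA library also cannot tell a fully open site in a few cells from a site that is partly open in many.

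In NOMe-seq a GpC methyltransferase marks cytosines of GpC dinucleotides where no nucleosome or bound protein shields them, so a higher percent GpC methylation means more accessible DNA. The autosomal median lay between 6.41% and 21.2% in the 9 libraries. Each value was therefore divided by the autosomal median of its own library, and the result is called the scaled level, with 1 as the typical autosomal window. Single windows were noisy, and the Spearman correlation of the scaled level between 2 libraries across the 165 Hox windows had a median of 0.069 over 36 pairs of libraries (range -0.057 to 0.28). The read depth is unknown, and the share of autosomal windows at 0%, which low depth raises, ran from 0.029% in Nons day 4 to 5.35% in Smarcc1 knockdown day 7. In that last library 10 of the 165 Hox windows stood at 0%, against 0 to 3 in each of the others.

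The readout rests on GpC letters in the DNA, and GpC positions followed by G are ambiguous with CpG methylation and were not used by the authors. The sequences below were read from the mm10 assembly, run 5′ to 3′ on the strand of the gene, and carry in capitals each GpC that can be read on the printed strand. Among the start sites, the outermost 5′ end of each gene in the annotation with 150 bases before it and 50 from it, the one shown belongs to the gene with the lowest level.
Hoxc4 start site (chr15:103018784-103018983, plus strand): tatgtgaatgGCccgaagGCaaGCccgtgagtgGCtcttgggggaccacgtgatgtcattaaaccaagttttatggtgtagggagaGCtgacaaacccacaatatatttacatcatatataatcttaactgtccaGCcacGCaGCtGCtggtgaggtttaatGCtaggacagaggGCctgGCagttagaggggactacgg
The Hoxc4 stretch held 12 readable GpC and 5 CpG. Over the 39 start sites the readable GpC in such a stretch ran from 5 to 23 with a median of 11.
The next stretches are the 160 bases with the most readable GpC within 4 windows that the comparisons below turn on, the first 3 for the knockdown and the last for day 0. Each label names a feature that the whole window holds, and the printed bases need not lie in that feature.
Hoxa3 intron (chr6:52175700-52175859, minus strand): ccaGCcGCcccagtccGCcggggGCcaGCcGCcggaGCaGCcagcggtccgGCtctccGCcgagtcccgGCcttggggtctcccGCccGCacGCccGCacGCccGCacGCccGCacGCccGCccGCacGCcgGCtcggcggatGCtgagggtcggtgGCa
Hoxb8 coding exon (chr11:96284467-96284626, plus strand): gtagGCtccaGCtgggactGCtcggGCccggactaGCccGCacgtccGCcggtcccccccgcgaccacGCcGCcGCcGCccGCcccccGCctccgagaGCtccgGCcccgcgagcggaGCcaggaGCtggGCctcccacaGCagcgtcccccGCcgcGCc
Hoxc5 intron (chr15:102986433-102986592, plus strand): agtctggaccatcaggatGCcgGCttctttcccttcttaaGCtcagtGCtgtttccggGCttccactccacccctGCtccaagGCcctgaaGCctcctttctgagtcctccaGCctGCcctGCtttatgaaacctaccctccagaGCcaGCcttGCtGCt
Hoxb2 coding exon (chr11:96353285-96353444, plus strand): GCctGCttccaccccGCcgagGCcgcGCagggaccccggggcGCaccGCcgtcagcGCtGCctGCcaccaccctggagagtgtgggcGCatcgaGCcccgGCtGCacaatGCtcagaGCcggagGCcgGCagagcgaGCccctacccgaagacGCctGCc
The Hoxa3 stretch held 26 readable GpC, the Hoxb8 stretch 21, the Hoxc5 stretch 15 and the Hoxb2 stretch 21. The Hoxc5 stretch held 2 CpG, whereas the other 3 held 17 to 26.

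Hox windows were more accessible than the autosomal median in every library. Their median scaled level was 1.33 at day 0. Nons stood at 1.38, 1.29, 1.61 and 1.61 on days 4, 5, 6 and 7. Smarcc1 knockdown cells stood at 1.30, 1.28, 1.42 and 1.40 on those days. In percent GpC methylation these medians lay between 10% and 27.3%. The interquartile range within a library was wide, for example 0.81 to 1.84 at day 0 and 1.16 to 2.20 in Nons day 6. Its lower end lay below the autosomal median at day 0 and in each knockdown library. In the Nons libraries it lay between 1.03 and 1.16, so some Hox windows in each library were near or below the autosomal median.

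**Figure D1:**
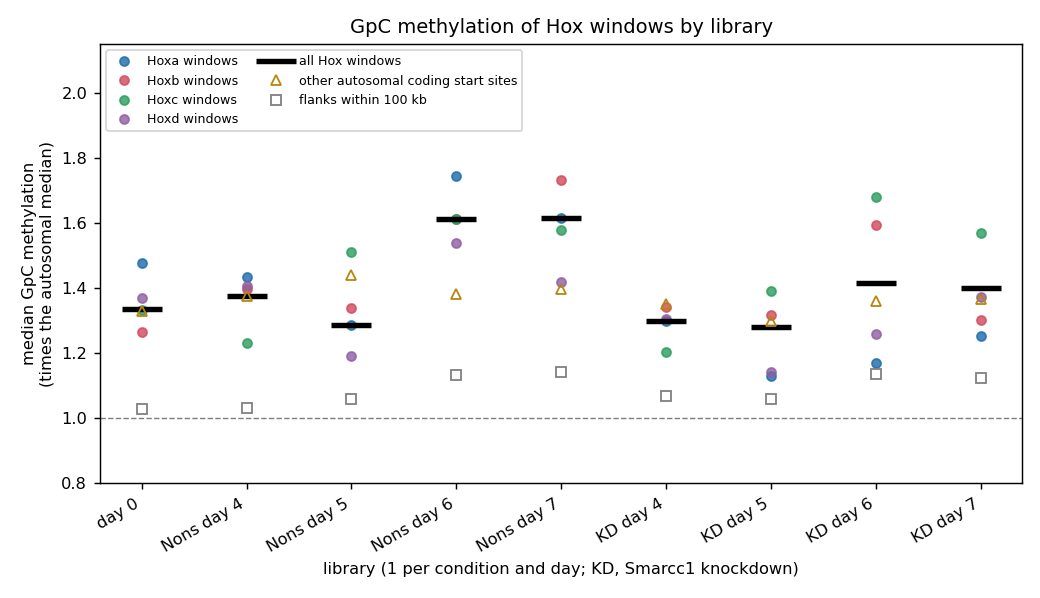
Median scaled level (percent GpC methylation divided by the autosomal median of the same library, y axis) of Hox windows in each of the 9 libraries (x axis), with 1 library per position. Black bars show all 165 Hox windows, coloured points the 4 clusters, triangles the start-site windows of other autosomal coding genes and squares the 300 windows within 100 kb of a cluster. The black bars lie between 1.28 and 1.61, above the squares (1.03 to 1.14) in all 9 libraries.

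A window at 2 times the autosomal median or more was called high. At day 0, 34 of 165 Hox windows were high (20.6%), against 6.68% of all autosomal windows. In Nons day 4 the counts were 17 Hox windows (10.3%) against 2.28% of autosomal windows, and in Nons day 5 they were 16 (9.70%) against 2.59%. Nons day 6 had 53 high Hox windows (32.1%) against 6.78%, and Nons day 7 had 56 (33.9%) against 9.03%. In the Smarcc1 knockdown 26 Hox windows were high at day 4 (15.8%) against 4.2%, 8 at day 5 (4.85%) against 1.47%, 35 at day 6 (21.2%) against 4.58% and 46 at day 7 (27.9%) against 12.1%. The Hox share was thus above the autosomal share in each of the 9 libraries, by the smallest factor in Smarcc1 knockdown day 7, where the autosomal share was highest.

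Because single values were noisy, windows were also counted across libraries. There were 45 Hox windows that were high in 3 or more of the 9 libraries (27.3%), whereas 2.91% of autosomal windows were. Among the start-site windows of the other protein-coding genes the share was higher than in Hox windows, at 36.4%. These 45 were spread over the clusters, with 13 of 47 in Hoxa, 11 of 39 in Hoxb, 11 of 40 in Hoxc and 10 of 39 in Hoxd. In the flanks 13 of 300 windows (4.33%) met the same count. Above the autosomal median in all 9 libraries were 19 Hox windows (11.5%), against 1.31% of autosomal windows and 16.3% of those start-site windows. In the opposite direction 1 Hox window (0.606%) lay below the median in all 9 libraries, against 0.524% of autosomal windows. That window held a coding exon of Hoxd3 (chr2:74743153-74745506), with a median scaled level of 0.69 and a highest of 0.95. Hoxd3 takes part in shaping the upper neck vertebrae.

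The raised level lay inside the clusters and was lower outside their edges, with an interruption in Hoxb. Windows more than 20 kb inside a cluster had a median of 1.34 over the 9 libraries (interquartile range 1.20 to 1.54, 143 windows), and windows in the 20 kb inside an edge 1.30 (1.15 to 1.57, 65 windows). In the 20 kb outside an edge the median was 1.11 (0.97 to 1.38, 63 windows), from 20 to 50 kb outside it was 1.08 (91 windows), and from 50 to 100 kb outside it was 1.05 (150 windows). Windows were placed by their midpoints, so the 20 kb outside an edge also hold Hox windows. Among them are the start-site windows of Hoxa13, Hoxb13, Hoxc13 and Hoxd13. The bins inside the clusters count all windows there, including 52 windows between Hox genes that overlap no member. Of these, 27 lay in the long gap between Hoxb13 and Hoxb9, and their median of 1.18 (1.04 to 1.34) was nearer that of the flanks. The 52 windows had a mean of the 9 library medians of 1.22, below the 1.40 of the Hox windows in 9 of 9 libraries. The flanks had 1.09, also lower in 9 of 9 libraries.

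**Figure D2:**
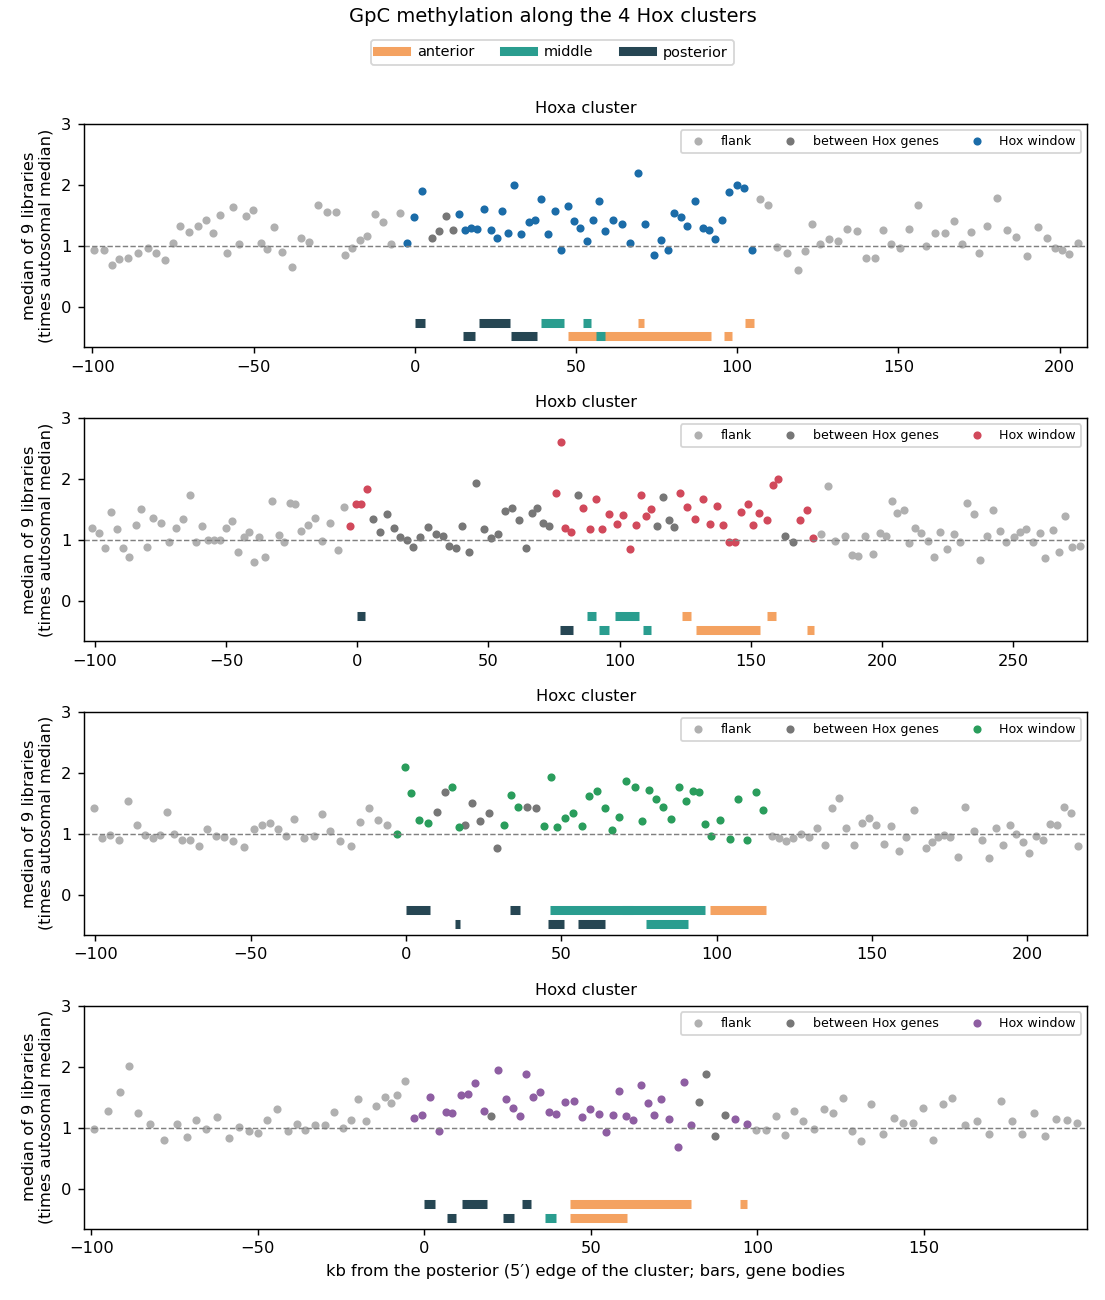
Median scaled level over the 9 libraries (y axis) of each window along the 4 Hox clusters and 100 kb to each side, against distance in kb from the posterior edge of the cluster (x axis). Coloured points are Hox windows, dark grey points windows between Hox genes, light grey points flanks, and bars under the points the gene bodies coloured by paralogue group. Most coloured points lie between 1 and 2, and the flanks scatter around 1, with a median of 1.05 at 50 to 100 kb from an edge.

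Open chromatin in most of the genome is concentrated at promoters, so Hox windows were compared with start-site windows of the other protein-coding genes. Those 18742 windows had library medians from 1.30 to 1.44. The Hox windows as a whole reached a similar level, with a mean of library medians of 1.40 against 1.37, and were the higher of the 2 sets in 6 of 9 libraries. A smaller share of them was high at day 0, in Nons days 4 and 5 and on each knockdown day. In Nons days 4 and 5 it was 10.3% and 9.70%, against 20.4% and 18.2% of the start-site windows. Only Nons days 6 and 7 went the other way, with 32.1% and 33.9% against 27.8% and 29.8%. The 35 Hox start-site windows with all 9 values had a mean of 1.53, above the other start sites in 8 of 9 libraries. The excess depended on which genes were counted, since the median over libraries was 1.54 for all 35 windows and 1.41 for the 20 windows of the 22 Hox genes with a RefSeq entry. For the RefSeq start sites of those 22 genes it was 1.36, near the other start sites. The 128 Hox windows with no coding start site of any gene still had a mean of 1.36. Autosomal windows without a coding start site had 0.99, and were lower than these Hox windows in 9 of 9 libraries by 0.20 to 0.62. Those autosomal windows that also matched the GC content of Hox windows had 0.99 as well. Start-site windows exceeded the other Hox windows by 0.17 on average, in 8 of 9 libraries, and the smallest difference was 0.

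The sequence of Hox windows differed from that of typical windows. Their median GC content was 49.9% and their median ratio of observed to expected CpG 0.39, against 42.5% and 0.17 over autosomal windows. They also held more GpC, 10.2 per 100 bp against 8.19, and were shorter, 2253 bp against 2783 bp, where shorter windows stand for denser read positions. Across the 165 Hox windows the median scaled level correlated with the CpG ratio at a Spearman rho of 0.49, with GC content at 0.36, with GpC density at 0.26 and with length at -0.15. Neighbouring windows share domains and base composition, so these values are descriptions. Hox windows were then set beside autosomal windows in the same bin of the CpG ratio, 0.05 wide. In the 55 Hox windows with the lowest CpG ratio, from 0.071 to 0.31, the mean of library medians was 1.20, against 1.01 for the autosomal windows of the same bins, and the Hox value was higher in 9 of 9 libraries. The middle 55 stood at 1.42 against 1.12, again higher in 9 of 9. In the 55 with the highest CpG ratio, from 0.47 to 0.94, Hox windows had 1.60 and the autosomal windows of the same bins 1.72, and the Hox windows were higher in 1 of 9. Hox windows of low and intermediate CpG content were therefore above other windows of their kind, and the CpG-richest Hox windows were not.

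2 sequence motifs with a role in Hox biology were counted on both strands of the windows. The first was the retinoic acid response element, the direct repeat bound by retinoic acid receptors, with 5 bases between its repeats. It lay in 3 Hox windows (1.82%) and in 1.04% of autosomal windows. These 3 were windows of Hoxd3, Hoxb3 and Hoxa3, the last being the Hoxa3 intron window whose stretch is printed above. The second was the joint Hox and Pbx site, TGATTGAT or TGATGGAT, which lay in 9.70% of Hox windows, 16.3% of autosomal windows of similar length and 23.2% of all autosomal windows. A match of letters is no proof of binding.

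No order of the clusters held across libraries. Hoxa had the highest median of the 4 clusters at day 0, Nons day 4 and Nons day 6 (1.48, 1.43 and 1.74) and the lowest in the Smarcc1 knockdown at days 5, 6 and 7 (1.13, 1.17 and 1.25). The mean over the 9 libraries was 1.38 for Hoxa, 1.43 for Hoxb, 1.46 for Hoxc and 1.33 for Hoxd, whereas the range over libraries within a cluster was larger, for example 1.13 to 1.74 for Hoxa. Anterior windows had a mean of library medians of 1.35, middle windows 1.47 and posterior windows 1.43. Posterior windows exceeded anterior ones in 6 of 9 libraries, by between -0.13 and 0.43, so no steady order of accessibility appeared between these groups. At day 0 the order ran the other way, with anterior windows at 1.42, middle at 1.37 and posterior at 1.30. The groups are mixed in position, since the annotated body of Hoxa3 (22 windows) covers Hoxa4, Hoxa5 and Hoxa6. Likewise, that of Hoxc5 (23 windows) covers Hoxc6, Hoxc8 and Hoxc9. An order by position along the cluster was not tested. Within single clusters the lowest group was the anterior end of Hoxc, which is Hoxc4 alone, at a mean of 1.15 over 8 windows.

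By gene, all 39 Hox genes had a median over the 9 libraries above 1 when the scaled level was averaged over the windows of the gene. The range was 1.15 for Hoxd1 to 2.00 for Hoxb2. The same share over other genes was not computed, so the count is not read as particular to Hox genes. Hoxb2 patterns hindbrain segments and the facial motor neurons, and Hoxd1 is used in sensory neurons.

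**Figure D3:**
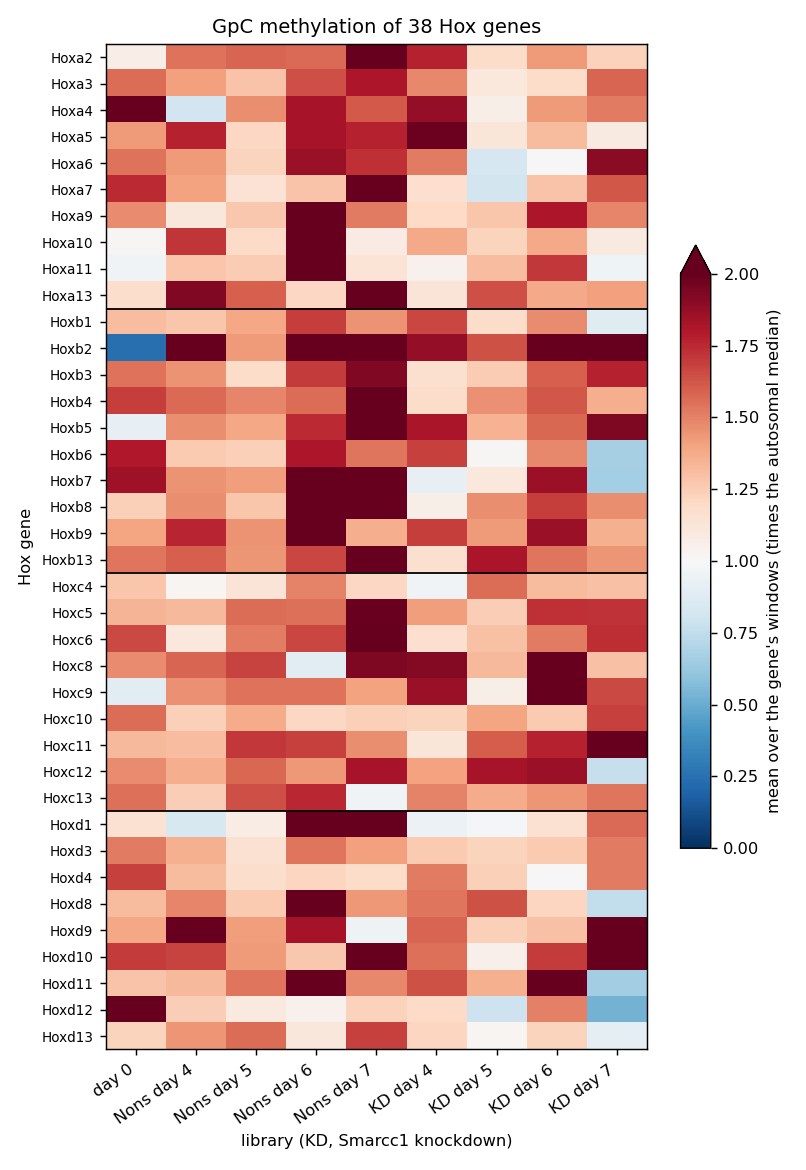
Mean scaled level over the windows of 38 Hox genes (y axis, by cluster and paralogue number) in the 9 libraries (x axis). Red is above and blue below the autosomal median of the library, and the scale is cut at 0 and 2. All genes shown have a median over the libraries above 1, a count that was not computed for other genes. The Hoxb2 cell at day 0 (0.25) is the lowest and includes windows at 0%.

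Start-site windows gave a value for 38 genes, since the Hoxb7 start site fell in a gap between windows, and long annotated transcripts place some 5′ ends beside other genes, so Hoxc5 and Hoxc10 share a window, as do Hoxd3 and Hoxd4. The most accessible start site was that of Hoxb9, a gene of thoracic identity, in a window (chr11:96271071-96272573) that holds its coding exon. Its GpC methylation was 36.0% at day 0. The Nons libraries had 37.5%, 38.6%, 41.0% and 16.7% on days 4, 5, 6 and 7. The knockdown libraries had 19.5%, 31.8%, 32.5% and 15.2%. The scaled level ran from 1.57 to 3.96 with a median of 2.60, and was above the autosomal median in 9 of 9 libraries.

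Hoxa4, which acts in the neck vertebrae, came next with a median of 2.20, yet ranged from 0.78 in Nons day 4 to 3.24 at day 0. Hoxc13, needed for hair and nail formation, had a median of 2.09 and ran from 0.80 in Nons day 7 to 3.0 in Smarcc1 knockdown day 4. Both genes overlapped the autosomal median in 1 library each.

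The least accessible start site was that of Hoxc4, a gene of the neck and upper trunk (chr15:103018354-103020278, a UTR exon). Its value was 15.1% at day 0. Nons had 10.3%, 12.6%, 16.7% and 5.8%, and the knockdown libraries had 10.8%, 20%, 15.7% and 2.4%. The median scaled level was 0.97, and 3 of 9 libraries were above the autosomal median. Hoxc9, which sets thoracic motor neuron columns, had a median of 1.13 with a range from 0.29 to 2.71. Hoxb8, used in blood progenitors and microglia, had a median of 1.18 with a range from 0.35 to 1.73. The highest value of Hoxc4 (1.61) barely exceeded the lowest of Hoxb9 (1.57), and most other start sites lay between these 2 genes with ranges that overlap each other.

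Among the ends of the clusters, the start sites of the low paralogues Hoxb1 and Hoxd1 had medians of 1.498 and 1.39. Hoxb1 patterns the hindbrain and is an early responder to retinoic acid. The Hoxd1 window had no value in Smarcc1 knockdown day 7 and was left out of all counts above, and its median is over 8 libraries. The highest paralogues Hoxa13, Hoxb13 and Hoxd13, which shape digits, the genital tract and the tail, had 1.48, 1.58 and 1.21. Levels at the anterior and posterior ends thus overlapped, and every one of these 5 start sites had at least 1 library below the autosomal median.

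Differentiation was examined by setting each Nons library against day 0. The median of the Hox windows changed little at days 4 and 5, by 0.04 ± 0.10 and -0.05 ± 0.18 (difference of library medians on the scaled level, ± SD over the 4 clusters). At days 6 and 7 it was higher than at day 0 by 0.28 ± 0.07 and 0.28 ± 0.18. The flanks were also higher on these days, by 0.11 and 0.11, and the start sites of other coding genes by 0.05 and 0.07. Autosomal windows of similar GC content changed by -0.018 and -4.2e-05. At day 6, 100 of 165 windows (60.6%) were above their day 0 value and 65 below, against 50.1% of autosomal windows above.

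Calls on single windows went in both directions. In Nons day 4, 18 Hox windows were higher than at day 0 by 1 or more on the scaled level and 18 lower, where 4.75% of autosomal windows were higher and 7.25% lower. In Nons day 5 the counts were 17 higher and 23 lower, against 5.56% and 7.8% of autosomal windows. In Nons day 6 there were 41 higher (24.8%) and 19 lower (11.5%), against 9.35% and 9.13%. In Nons day 7 there were 46 higher (27.9%) and 22 lower (13.3%), against 11.3% and 9.84%. When each library was centred on its autosomal median instead of divided by it, the day 7 change was 0.02.

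In the knockdown arm the same medians differed from day 0 by -0.04 ± 0.11, -0.05 ± 0.20, 0.08 ± 0.33 and 0.07 ± 0.19 at days 4, 5, 6 and 7, each smaller than the spread between clusters.

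Of 39 genes, 27 (69.2%) had a higher mean in the 4 Nons libraries than at day 0, against 48.7% of 20746 autosomal protein-coding genes. Hoxb2 differed most, with 0.25 at day 0 and 1.90 ± 0.32 (SD over 4 days) in Nons, and in the 8 later libraries it ran from 1.42 to 2.10. The gene has 4 windows, and at day 0 its start-site window and the coding exon window next to it both read 0%. With unknown depth, such values can also be windows of few reads. Hoxb5, used by enteric neural crest, had 0.92 and 1.78 ± 0.51. At the other end Hoxd12, a gene of limb and digit formation, had 2.20 at day 0 and 1.16 ± 0.10 in Nons, and Hoxa4 had 2.06 and 1.43 ± 0.44. In all 4 genes, which were picked for the size of their change, the day 0 value lay outside the range of the 8 later libraries.

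In a limma fit of the later libraries against the lone day 0 library over all 829493 windows, all of the spread came from the 8 later libraries, and day 0 was assumed to vary like them. The fit cannot tell a difference at day 0 from noise in that 1 library. No Hox window passed an adjusted p of 0.05, while 869 windows elsewhere did, all of them lower in the later libraries. At an unadjusted p under 0.05 there were 8 Hox windows higher in the later libraries (4.85%) and 13 lower (7.88%), against 1.21% and 5.11% of all windows, so the share of lower calls was near that of the background. The 3 smallest p-values fell in Hoxb6 to Hoxb7, Hoxd3 to Hoxd4 and Hoxb2. The window with a Hoxb7 coding exon (chr11:96288846-96291930) had 42.1% at day 0, whereas Nons had 18.2%, 30.4%, 15.9% and 13.5% and the knockdown libraries 14.9%, 14.5%, 20.4% and 1.7%. The later libraries were lower by 2.43 ± 0.54 (SE from the later libraries) on the scaled level, with a limma adjusted p of 0.11. The window at the shared 5′ part of Hoxd3 and Hoxd4 (chr2:74711991-74714573, a UTR exon of Hoxd3) had 37.9% at day 0 and between 7.5% and 37.0% later, and the later libraries were lower by 1.88 ± 0.47 (limma adjusted p = 0.18).

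The Hoxb2 window (chr11:96351637-96353670) holds a coding exon and an exon of the antisense RNA Hoxb3os. It had 0.0% at day 0. Nons had 24.6%, 40.3%, 23.0% and 12.5%, and the knockdown libraries 23.6%, 27.5%, 20.6% and 24.3%. All 8 later values were above the autosomal median, with scaled levels from 1.36 to 3.41, and the difference was 2.06 ± 0.56 (limma adjusted p = 0.23). With 1 library at day 0 and unknown depth, a 0 can also be a window of few reads.

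A trend over days 4 to 7, shared by both arms, was fitted with limma in the same way. No Hox window passed the adjusted threshold, and 24 (14.5%) had an upward and 7 (4.24%) a downward slope at an unadjusted p under 0.05, against 4.73% and 2.77% of all windows. This split depended on the scale. With each library centred on its autosomal median 7 were upward and 8 downward, and after quantile normalization 14 were upward and 11 downward. The 3 windows with the smallest p were a Hoxa3 coding exon (chr6:52170708-52172480), a Hoxd3 UTR exon (chr2:74732263-74734561) and the stretch upstream of Hoxb8 (chr11:96279432-96281625). Their slopes were 0.71 ± 0.16, 0.71 ± 0.16 and 0.65 ± 0.15 (SE) per day on the scaled level (limma adjusted p = 0.50, 0.50 and 0.52). The Hoxa3 exon went from 15.6%, 18.5% and 16.3% at days 4, 5 and 6 to 21.4% at day 7 in Nons, and from 14.4%, 20.1% and 23.6% to 23.1% in the knockdown, with 8.9% at day 0. In percent the change of this exon was therefore small, while the autosomal median of the libraries fell at day 7. Hoxa3 is needed for the thymus, the parathyroid and other derivatives of the pharyngeal arches.

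The Smarcc1 knockdown was compared with Nons on each day. Knockdown cells had the lower Hox median at days 4, 6 and 7, by 0.08, 0.20 and 0.21. At day 5 the difference was -0.0045, and its sign turned with gene bodies alone (0.018) and with quantile normalization (0.044), so no direction is given for that day. The mean difference was -0.12 ± 0.10 (SD over 4 days), from 1.47 in Nons to 1.35 in the knockdown. The flanks did not follow, with a mean of 0.0060 ± 0.023, and neither did autosomal windows of similar GC content, with 0.0020 ± 0.027. Start sites of the other coding genes were lower by 0.05 on average and on 4 of 4 days, mostly at day 5. No p-value is given, since the days are not replicates.

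**Figure D4:**
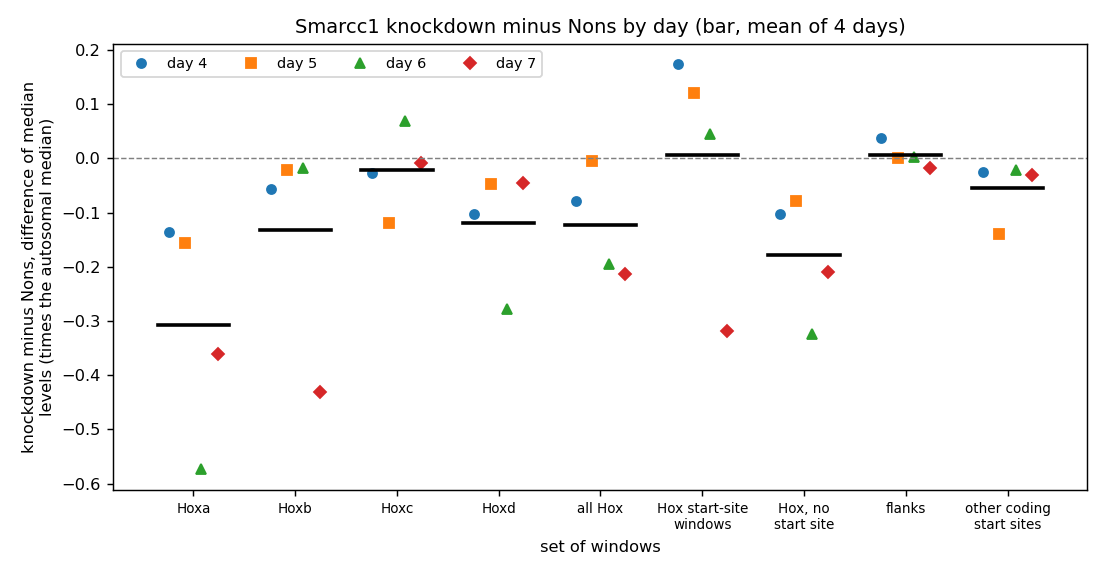
Knockdown minus Nons difference of median scaled levels (y axis) for sets of windows (x axis) at days 4, 5, 6 and 7 (symbols), with the mean of the 4 days as a black bar. Values under 0 are lower in the knockdown. Hoxa has the lowest mean (-0.31), and the flanks lie within 0.04 of 0.

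The difference was uneven over the clusters. Hoxa was lower by 0.14, 0.16, 0.57 and 0.36 at the 4 days, a mean of -0.31 ± 0.20, and its mean level was 1.52 in Nons and 1.21 in the knockdown. Hoxb differed by -0.13 ± 0.20, of which day 7 (-0.43) made up most, and without day 7 the mean was -0.03. Hoxd differed by -0.12 ± 0.11, and without day 6 by -0.07. Hoxc differed by -0.02 ± 0.08, within its spread. By paralogue group the mean differences were -0.16 ± 0.16 for anterior, -0.22 ± 0.25 for middle and -0.08 ± 0.02 for posterior windows, each lower on 4 of 4 days. Without day 6 the anterior value was -0.08, and without day 7 the middle value was -0.09. Hox windows without a start site were lower by 0.18 ± 0.11 on 4 of 4 days, whereas the Hox start-site windows had a mean difference of 0.01 ± 0.22 and were lower on 1 of 4 days.

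Counted by window, lower calls outnumbered higher calls on each day, by the least at day 5. In the knockdown at day 4, 10 Hox windows (6.06%) were higher by 1 or more and 18 (10.9%) lower, against 4.76% and 3.53% of autosomal windows. At day 5 there were 6 higher (3.64%) and 7 lower (4.24%), against 2.7% and 3.45%, close to the background. At day 6 there were 17 higher (10.3%) and 38 lower (23.0%), against 7.22% and 8.6%. At day 7 there were 28 higher (17.0%) and 42 lower (25.5%), against 13.9% and 12.6%. Lower on all 4 days were 15 Hox windows (9.09%), against 6.37% of autosomal windows, and higher on all 4 days were 3 (1.82%), against 6.3%. The 15 were 6 windows of Hoxa, 5 of Hoxb, 2 of Hoxc and 2 of Hoxd.

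By gene, 29 of 39 had a lower mean in the knockdown than in Nons, with 10 of 11 in Hoxa, 10 of 10 in Hoxb, 3 of 9 in Hoxc and 6 of 9 in Hoxd. That is 74.4% of the Hox genes, against 48.1% of 20746 autosomal protein-coding genes. Neighbouring Hox genes are not separate observations, since 51 windows overlap 2 or more of them. The difference was largest for Hoxb7, from 2.10 ± 0.82 in Nons to 1.14 ± 0.51 in the knockdown (SD over 4 days). It was lower on 4 of 4 days, and the arms overlapped. The 3 windows of Hoxb7 include the Hoxb8 coding exon window described below, which also counts for Hoxb8. The gene difference and that window are therefore not separate results. The largest differences the other way were those of Hoxc11, which acts in the hindlimb and sacral region, from 1.54 ± 0.19 to 1.85 ± 0.75, and Hoxd10, used in lumbar motor neurons, from 1.62 ± 0.37 to 1.85 ± 0.87. Each rested on a high value in Smarcc1 knockdown day 7 (2.89 and 3.08) and was within its spread.

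A limma fit with the day as a block asked which windows had a knockdown effect shared by the days. No window of the 829493 passed an adjusted p of 0.05, and the p-values measure the spread between days, not between replicate cultures. At an unadjusted p under 0.05 there were 11 Hox windows (6.67%) lower in the knockdown and 0 higher, against 2.29% and 2.24% of all windows. The 11 lay in Hoxa (4), Hoxb (4), Hoxc (1) and Hoxd (2), and 9 of them were lower on all 4 days. The 11 were picked by p from these same days, so the count of 9 follows largely from the pick. They included the start sites of Hoxa7, Hoxb6, Hoxb9 and Hoxd13.

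The smallest p-value belonged to the Hoxa3 intron window printed above (chr6:52175266-52177432), which also holds an exon of the antisense RNA Hoxaas3. It had 17.5% at day 0. Nons had 40%, 28.2%, 39.1% and 16.5% on days 4, 5, 6 and 7, against 6.9%, 25.4%, 11.9% and 0.0% in the other arm. The knockdown was lower on each day, with scaled means of 2.64 in Nons and 0.72, a difference of -1.92 ± 0.41 (SE, limma adjusted p = 0.96). The arms barely differed at day 5, where the scaled levels were 1.33 and 1.26. The 0.0% fell in Smarcc1 knockdown day 7, the library with the most Hox windows at 0%. Such a 0 can also be a window of few reads.

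The window with a Hoxb8 coding exon in the 2 kb before Hoxb7 (chr11:96284396-96286594) had 16% at day 0. Nons had 23.7%, 44.0%, 46.7% and 30%, and the knockdown libraries 7.8%, 26.6%, 20% and 5.8%. The scaled means were 3.24 and 1.13, a difference of -2.11 ± 0.46 (limma adjusted p = 0.96). In Nons this window was among the most open at days 6 and 7, at 4.51 and 4.68 times the autosomal median, whereas in the knockdown it did not exceed 1.68. Hoxb7 and Hoxb8 act in the trunk.

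The Hoxc5 intron window (chr15:102986360-102988339) lies between Hoxc9 and Hoxc8. It counts as Hoxc5 because the long annotated body of Hoxc5 starts inside Hoxc10 and covers both genes. It had 1.9% at day 0. Nons had 30.7%, 39.0%, 26.0% and 23.8%, and the knockdown libraries 10%, 21.1%, 12.8% and 2.1%. The scaled means were 2.57 and 0.83, a difference of -1.74 ± 0.40 (limma adjusted p = 0.96). The arms did not overlap, with Nons at 1.84 or more and the knockdown at 1.07 or less. Like the Hoxa3 and Hoxb8 windows above, this window was picked by its p-value from these same libraries, which favours such a separation. Hoxc5 is used in the phrenic motor neurons, but the tie of this window to Hoxc5 rests on the annotation alone.

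**Figure D5:**
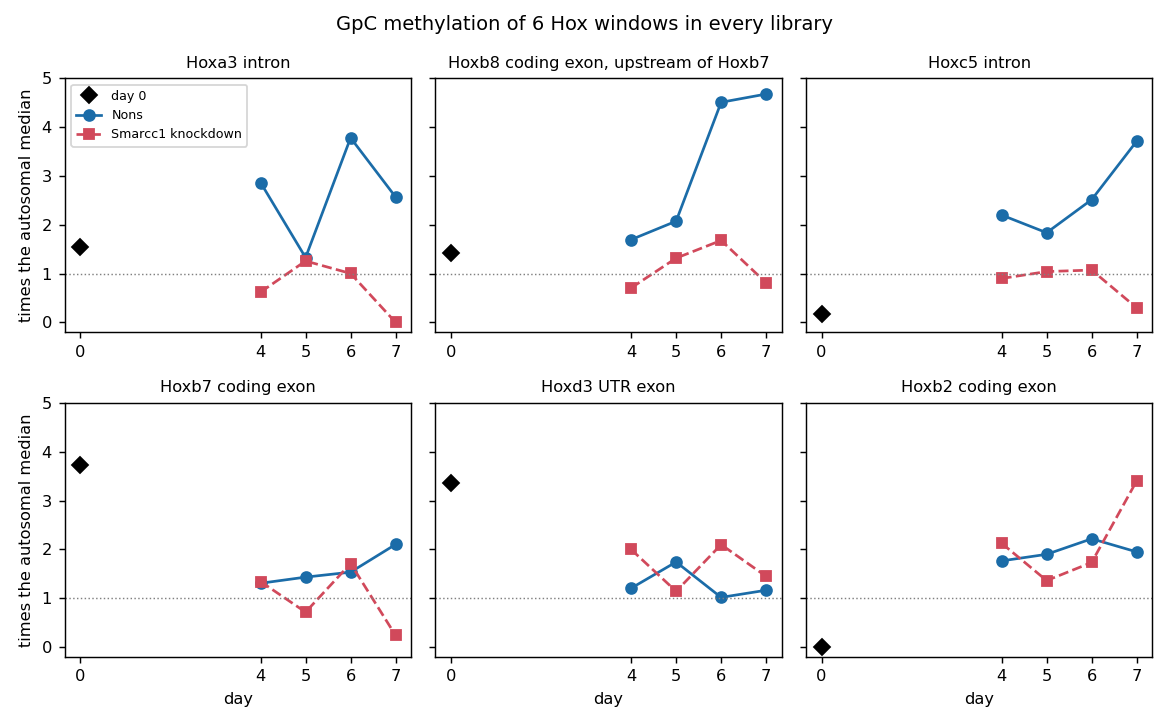
Scaled level (y axis) by day (x axis) of 6 Hox windows, with the day 0 library as a diamond, Nons as blue circles and the Smarcc1 knockdown as red squares, 1 library per point. The knockdown lies below Nons on all 4 days in the first 3 panels, and the last 3 panels show windows with 3.73, 3.36 and 0 times the autosomal median at day 0. All 6 windows were picked by small p-values from these same libraries.

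Genes that regulate or assist Hox genes were looked at by their start-site windows. Of 23 genes in the list, 21 had a window with all 9 values (Pknox1 and Ctcf did not), and 12 of these were high in 3 or more libraries, against 36.4% of all autosomal protein-coding start-site windows. The median of their 9-library medians was 1.69, with a median of 1.90 for the Nons mean and 1.74 for the knockdown mean. The Polycomb subunit genes Suz12 and Ezh2 had medians of 2.47 and 2.13, the cohesin gene Rad21 2.33 and the retinoic acid receptor gene Rarg 2.34. The receptor gene Rarb had 0.76, the cofactor gene Meis3 0.63 and the activator gene Kmt2a 1.11. The 5 genes of the ParaHox and Evx list, homeobox relatives of the Hox genes, had a median of 1.49, led by Gsx1 at 3.04. The start sites of the 9 long non-coding RNAs of the clusters had a median of 1.27, with 1 of 9 high in 3 or more libraries against the same 36.4%, and 7 of the 9 lay in Hox windows. Among these Hottip, beside Hoxa13, had 1.04, whereas Hoxaas3 had 1.73.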

How the data were processed

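NOMe-seq was carried out by the authors on fixed cells, and libraries were made with the Accel-NGS Methyl-Seq kit. Per the labels and methods, reads were trimmed by the authors (trim_galore), mapped with Bismark to an mm10 genome masked at FVB and CAST variants, and reduced to informative GpC positions (coverage2cytosine). Each deposited value is a percent, the methylated share of GpC calls per Seqmonk window of 200 read positions, with alleles merged. They carry no normalization between libraries and no read counts, so depth is unknown. Enzyme activity, fixation and bisulfite conversion can raise or lower a whole library. Groups and days came from sample titles.

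The members and lists were chosen with earlier results of these data known. Windows with a value in all 9 libraries were used (829493, of which 786533 autosomal), and divided by the autosomal median. A high window was at 2 or more, and a change 1 or more. Set values are medians over windows, and ± gives the SD over clusters or days. Window fits used limma 3.58.1 in R 4.3.3 with Benjamini-Hochberg adjustment over all windows. The knockdown fit was tested on simulated data with changes planted in the knockdown libraries alone. The trend and day 0 fits had no planted change of their own. The printed genes were, by rule, the lowest and highest paralogue of each cluster, the 3 highest and 3 lowest start sites, the 3 smallest p-values of each fit, and the 2 largest gene changes each way. The other genes and windows were named after their values were seen. Alternatives changed the scaling, filters, window length, gene region and days used. Annotation was GENCODE M21 on the same assembly. The values and sequence of 1 gene, and 1 other sequence, are not reported here.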

Additional observations from a re-analysis of the deposited data

Results flagged for a closer look

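The Hoxc windows had knockdown minus Nons differences of opposite sign on 2 days, -0.12 at day 5 and 0.069 at day 6 (difference of median scaled levels over 40 windows). Whether the 2 days differ was not tested, and both values rest on 1 library per arm.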

How the results depend on the processing

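The level of the Hox windows stayed above the autosomal median in all 9 libraries under each alternative run, and the mean knockdown difference stayed below 0 under each, whereas the day 5 difference (-0.0045) turned to 0.018 with gene bodies alone and 0.044 with quantile normalization. Of 217 alternative values for the main results 200 moved by less than the spread between clusters or days, or within 1.5 times for counts, and the cause of the other 17 was not tested. Centring moved the change from day 0 to 0.14 for Nons day 5 and 0.018 for Nons day 7, and the day 4 knockdown difference to -0.16. Quantile normalization moved the Nons day 4 change to 0.18 and the day 4 knockdown difference to -0.17. In the limma knockdown fit the Hox windows called higher went from 0 to 1 with centring and to between 2 and 5 without a day (5 without day 7, 3 without day 4, and 2 without day 5 or day 6), while those called lower ran from 11 to 16 without a day. Without the day block 8 were lower. In the trend fit 7 had an upward slope with centring, and 14 an upward and 11 a downward slope with quantile normalization. Downward calls ran from 3 to 15 without a day (3 without day 4, 4 without day 5, 15 without day 6). Without windows at 0% or 100% the later libraries were higher than day 0 in 5 Hox windows in place of 8. The start-site level of 1.54 (median of library medians) became 1.41 for the GENCODE start sites of the 22 genes with a RefSeq entry and 1.36 for their RefSeq start sites, both alternatives chosen after seeing the data.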
